A study of Arabidopsis thaliana with 6 samples.

Results

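A set of 20 probe sets had signal in both replicate 2 arrays that was at least 2 times the signal of every other array of the series. They were chosen from 10130 probe sets that had a mean signal of 50 or more over the 6 arrays, were not array controls and were not annotated as plastid-encoded, out of 22746 non-control probe sets in all. For each, the lower of the sni1 and wild-type replicate 2 signals was divided by the highest signal among the other 4 arrays, and a ratio of 2 or more made it a member. The choice used every array, so the replicate 2 values of members are given as a description, with no test.

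The arrays compared whole plants of the sni1 mutant, in the Col-0 background, with wild-type Col-0 plants, with 3 arrays per genotype numbered 1 to 3. The labels describe the sni1 mutation as induced by radiation and place it in At4g18460, and give the wild-type stock as N1093. Stratification lasted 3 days at 4 °C in both genotypes, growth on soil followed at an average of 22 °C, and whole plants were taken at developmental stage 3.90. No plant received a treatment that the labels name. The labels do not say what a replicate number marks, nor whether samples of a genotype came from separate plants or sowings, so a p-value here measures the spread between samples that may differ only technically.

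SNI1 is known to restrain systemic acquired resistance, a defence state of plants that depends on salicylic acid. Total RNA was the starting material and biotin the label for ATH1 arrays, where a set of short probes measures each transcript. The MAS5 signal of a probe set is a scaled intensity in arbitrary units. In whole-plant RNA, fewer cells of a type and less RNA per cell cannot be told apart. Only 6 of the 20 members had a gene in the platform annotation used here, so few functions of members can be given. AFR (ATTENUATED FAR-RED RESPONSE) encodes an F-box protein with kelch repeats, the part of a ubiquitin ligase that selects substrates, and is known to act in phytochrome A signalling, by which seedlings respond to far-red light.

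Of the 20 members, 6 (30%) had 1 gene in the platform annotation, against 51.5% of the 10130 probe sets. They were AT1G55960, AT5G35970, AT1G13650, AT1G76240, AT1G73480 and AFR (AT2G24540). The other 14 had no entry and are given by probe set. None of the 20 was of the types whose probes can match several transcripts, which made up 4.01% of the 10130. Member means ran from 52.5 to 396 with a median of 108, against a median of 129 over the 10130 probe sets, and 8 of 20 lay above that median.

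Signals of the arrays were scaled to 1 trimmed mean (100.01) before deposit, and array medians lay between 34.6 and 40.8. Of the leaf markers with a named probe set, RCA, LHCB4.1, LHCB4.2 and PSBY had signals from 2862 to 8742 on the 6 arrays, while the root markers EXPA7 and AT3G54580 stayed under 17. Flower and seed markers had no named probe set. The gene named in the labels, AT4G18460, had signals of 44.3, 32.5 and 28.2 in sni1 replicates 1, 2 and 3, against 41.0, 40.04 and 37.2 in wild type. SNI1 itself, AT4G18470, had no named probe set and was not analysed here.

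Both replicate 2 arrays stood apart in some control ratios of 3' to 5' signal, a measure of RNA integrity and labelling. One GAPDH pair gave 1.16 in sni1 and 1.16 in wild type on the replicate 2 arrays, against 0.797 to 0.886 on the other 4. A ubiquitin pair gave 1.49 in sni1 and 1.42 in wild type on the replicate 2 arrays, against 1.68 to 1.98, and another 2.32 and 1.95 against 2.54 to 2.85. The other actin and GAPDH pairs overlapped between the replicate 2 arrays and the rest. Of 36 control probe sets with a mean of 50 or more, 0 met the member rule. What part these ratios have in the member values was not tested.

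AT1G55960, which encodes a protein of the polyketide cyclase and lipid transport superfamily, had the highest ratio among named members. Its signal was 321 in sni1 and 341 in wild type on the replicate 2 arrays, against 65.0 and 105 in sni1 and 74.6 and 104 in wild type on the replicate 1 and 3 arrays. The lower replicate 2 signal was thus 3.04 times the highest other signal, and the replicate 2 mean was 3.79 times the mean of the other 4. In both genotypes replicate 1 was the lowest array, and the genotypes lay close together at each replicate number.

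AT5G35970, annotated elsewhere as a P-loop nucleoside triphosphate hydrolase, was the member with the strongest signal. It stood at 691 in sni1 and 764 in wild type on the replicate 2 arrays, against 248 and 223 in sni1 and 218 and 230.1 in wild type on the replicate 1 and 3 arrays. The other 4 arrays spanned only 1.14 times from lowest to highest, the narrowest span of the 20 members. The order of replicates 1 and 3 differed between the genotypes.

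AT1G13650 had the largest gap between genotypes on the replicate 2 arrays. Signals were 298 in sni1 and 491 in wild type there, against 60.2 and 95.5 in sni1 and 58.6 and 111 in wild type on the replicate 1 and 3 arrays. The replicate 2 mean was 4.85 times the mean of the other 4, while the wild-type replicate 2 signal was 1.65 times that of sni1. At replicate 1 the genotypes were nearly equal.

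AT1G76240, of a plant protein family with no known function, had 197 in sni1 and 212 in wild type on the replicate 2 arrays, against 79.9 and 57.9 in sni1 and 79.7 and 42.0 in wild type on the replicate 1 and 3 arrays. It was 1 of 3 members in which both replicate 1 arrays lay above both replicate 3 arrays.

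AT1G73480, an alpha/beta hydrolase of a family that includes monoacylglycerol lipases, and AFR lay just inside the limit of 2. For AT1G73480 the signals were 422 in sni1 and 415 in wild type on the replicate 2 arrays, against 168 and 154 in sni1 and 185 and 204 in wild type on the replicate 1 and 3 arrays. AFR had 92.2 in sni1 and 117 in wild type on the replicate 2 arrays, against 38.3 and 27.1 in sni1 and 34.0 and 45.8 in wild type on the replicate 1 and 3 arrays. Their ratios were 2.03 and 2.01, and that of the next member, 261335_at, was 2.08. Just outside lay 262635_at (1.998), 261191_at (1.99) and IAGLU (1.98), an indole-3-acetate beta-D-glucosyltransferase, an enzyme that conjugates auxin to glucose.

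**Figure D1:**
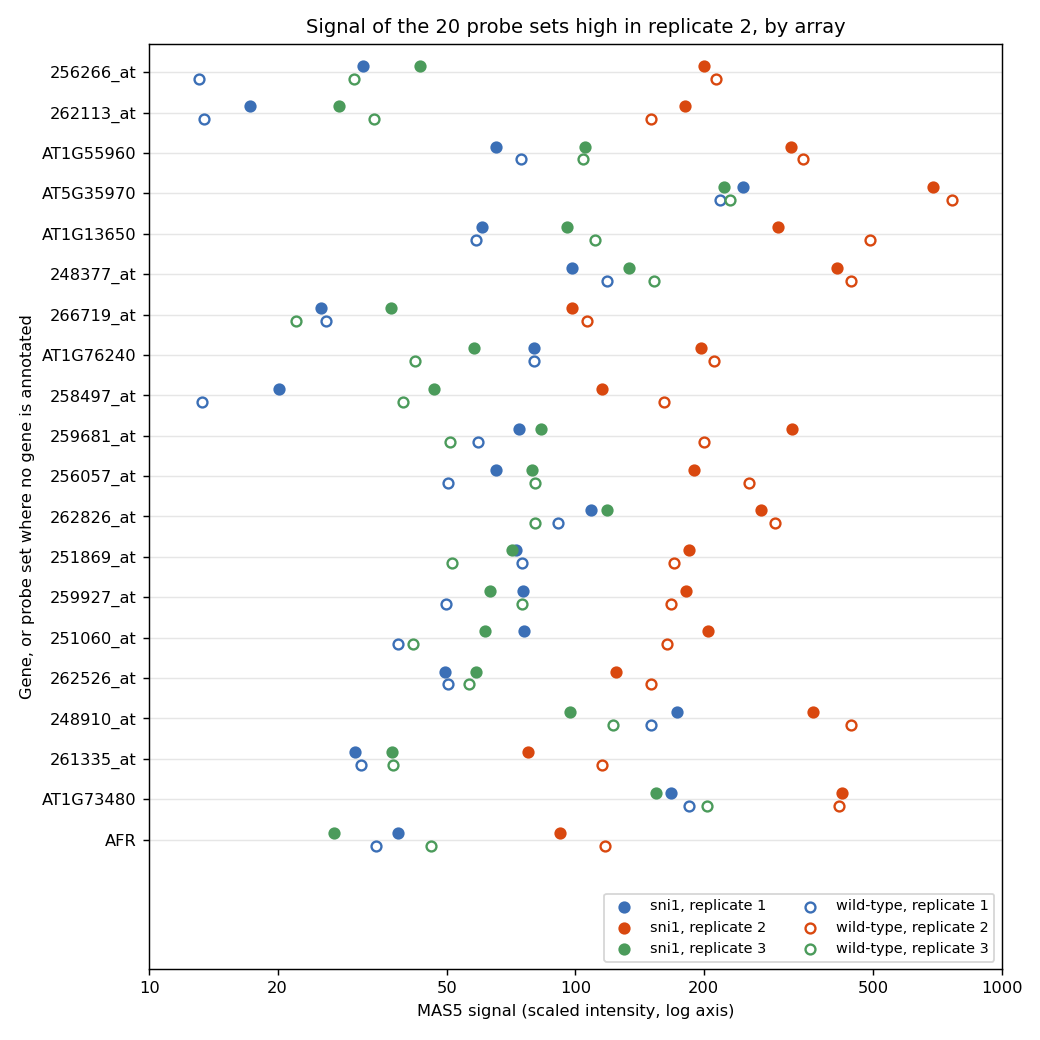
Signal of the 20 members on each array (log axis; filled circles sni1, open circles wild type; colours give the replicate number), ordered by ratio from the highest. In every row both replicate 2 points lie at least 2 times to the right of the other 4, as the rule requires, from 77.4 for 261335_at to 764 for AT5G35970.

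The highest ratios belonged to a pair of probe sets with no annotated gene. 256266_at had 200.2 in sni1 and 214 in wild type on the replicate 2 arrays, against 31.7 and 43.3 in sni1 and 13.1 and 30.2 in wild type on the replicate 1 and 3 arrays (ratio 4.63). 262113_at had 180.5 in sni1 and 151 in wild type on the replicate 2 arrays, against 17.2 and 27.8 in sni1 and 13.4 and 33.6 in wild type on the replicate 1 and 3 arrays (ratio 4.48). Their replicate 2 means were 7.01 and 7.19 times the means of the other 4, the only members above 5 times. Both had low signal outside replicate 2.

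The remaining 12 members without a gene name had ratios between 2.08 and 2.68. The strongest was 248377_at, with 410.1 in sni1 and 443 in wild type on the replicate 2 arrays, against 98.1 to 153 on the other 4, followed by 248910_at, with 361 and 442 against 97.1 to 173. The lowest mean was that of 266719_at, with 98.2 in sni1 and 107 in wild type on the replicate 2 arrays, against 22.2 to 36.9 on the others, while 261335_at had the lowest replicate 2 mean (96.6), with 77.4 in sni1 and 116 in wild type against 30.4 to 37.3. Over all 20 members the replicate 2 mean was 2.35 to 7.19 times the mean of the other 4, with a median of 3.20.

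By the same rule 10 probe sets (0.0987%) were high in both replicate 1 arrays and 25 (0.247%) in both replicate 3 arrays, against the 20 (0.197%) high in replicate 2. The highest ratio was 6.56 for replicate 1 and 7.68 for replicate 3, against 4.63 for replicate 2. In the opposite direction, 17 probe sets (0.168%) had both replicate 2 signals at most 1/2 of the lowest other signal. Both replicate 2 arrays lay above all others, by any margin, in 991 probe sets (9.78%) and below all others in 965 (9.53%).

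**Figure D2:**
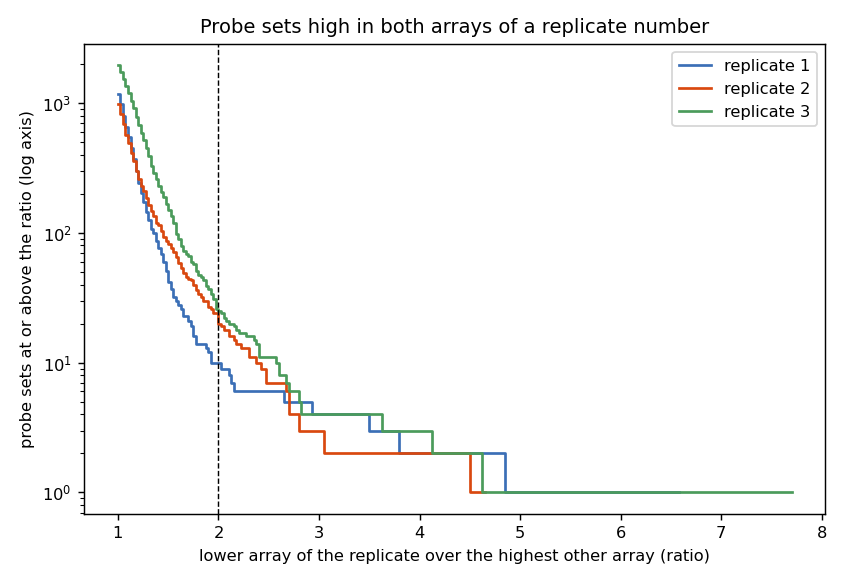
Number of the 10130 probe sets (log axis) at or above each ratio of the lower array of a replicate number over the highest other array, with 1 line per replicate number. At the dashed limit of 2 the lines stand at 10 for replicate 1, 20 for replicate 2 and 25 for replicate 3.

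The number of probe sets meeting the rule moved with the limits and with the arrays left out. A ratio limit of 1.5 gave 82 probe sets and a limit of 3 gave 3, namely 256266_at, 262113_at and AT1G55960. Without sni1 replicate 2 the rule gave 41 probe sets, 18 of them members, and without wild-type replicate 2 it gave 30, 16 of them members. Leaving out any of the other arrays gave 25 to 29, with all 20 members among them.

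Whether a replicate 2 excess seen in one genotype also appears in the other was read by choosing within 1 genotype and reading the arrays of the other. Where probe sets were chosen by the wild-type arrays alone (replicate 2 at least 2 times both other wild-type arrays, mean of 50 or more), 75 qualified, and sni1 replicate 2 was at least 2 times both other sni1 arrays in 31 of them (41.3%), against 44 of 10009 probe sets (0.44%). Chosen by the sni1 arrays alone, 45 qualified, and wild-type replicate 2 met the same limit in 29 (64.4%), against 77 of 10121 (0.761%). The replicate 2 array of the genotype not used was the highest of its 3 in 75 of 75 and in 45 of 45, against 30.3% and 29.6% of all probe sets. For replicate 1 the limit was met in sni1 by 16 of the 44 probe sets chosen in wild type (36.4%), against 0.3% of all, and in wild type by 16 of the 33 chosen in sni1 (48.5%), against 0.415%. For replicate 3 it was met in sni1 by 46 of 126 (36.5%), against 0.679%, and in wild type by 45 of 69 (65.2%), against 1.26%. No test was made of these shares, since probe sets of 1 array are not replicates. For replicate 2, members with a mean of 50 or more in the choosing genotype meet the limit in both genotypes by their rule. The replicate 2 shares include them, and so are a description and not a separate check of the members.

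**Figure D3:**
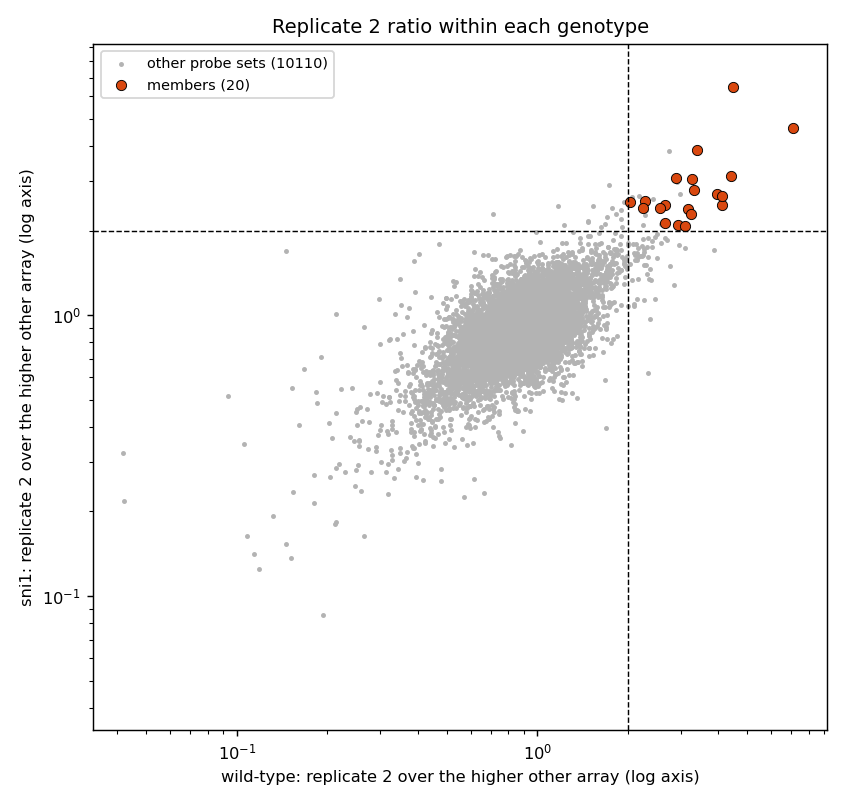
Replicate 2 signal over the higher of the 2 other arrays of the same genotype, sni1 on the vertical and wild type on the horizontal axis (both log), for the 10130 probe sets, with members in orange. The 20 members lie above the dashed limit of 2 on both axes, with grey points there that pass within each genotype but not across all arrays.

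Set against the other 2 arrays of its own genotype, the replicate 2 signal of the members was 2.29 to 8.02 times the mean of the 2 other arrays in sni1 (median 2.90) and 2.13 to 9.91 times in wild type (median 3.46). It was larger in sni1 for 4 members and in wild type for 16. The share over all probe sets was not counted, so these counts are not read as a trait of the members. Among all probe sets, the choice within 1 genotype also gave more in wild type (75) than in sni1 (45) for replicate 2. The replicate 2 signal itself was higher in wild type for 14 of 20 members (70.0%), against 50.7% of the 10130 probe sets. These are counts over members of the same 6 arrays, and no test of a difference in excess between the genotypes was made.

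The contrast of replicates 3 and 1, which the rule does not use, ran in both directions. Both replicate 3 arrays lay above both replicate 1 arrays in 8 members (40%), against 29.1% of all probe sets, and below both in 3 (15%), against 28.8%. The widest such gap was in 258497_at, with 46.7 in sni1 and 39.3 in wild type at replicate 3, against 20.2 and 13.3 at replicate 1, a ratio of means of 2.57. AT1G13650 (ratio of means 1.74) and AT1G55960 (1.5) were also higher at replicate 3. AT1G76240 was lower (0.626), as was 248910_at (0.68). High replicate 2 signal is shared because the rule requires it, and the order of the other replicates differed among members.

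The comparison of genotypes, the subject of the series, was not used in choosing the members, although a rule that needs both replicate 2 arrays above all others leaves out probe sets with large genotype differences. It was tested with limma across all 13648 probe sets with a mean of 24.5 or more, and all 20 members were above that filter. Of the 20, 0 were higher and 0 lower in sni1 past an adjusted p of 0.05, against 0.52% and 0.0293% of the probe sets tested. At an unadjusted p under 0.05 the member counts were also 0 and 0, against 5.45% and 3.04% of the probe sets tested. Member log2 fold changes, sni1 minus wild type on the log2(value + 2.8668) scale, ran from -0.30 to 0.59 with a median of 0.043, against a median of -0.0051 over all tested. Their standard errors were 0.44 to 0.99, against a median of 0.204 over the 10130 probe sets, since each genotype held 1 array far above its other 2. Such errors follow from the rule, so members could hardly pass in this fit, and the counts of 0 cannot be read against those shares. The errors leave room for genotype differences, and the counts do not show that members were equal in the genotypes.

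With the replicate number as a block in the fit, 2 of 20 members were higher in sni1 and 0 lower, against 6.15% and 3.88% of all probe sets. 259681_at had signals of 73.6, 322 and 82.9 in sni1 replicates 1, 2 and 3, against 59.0, 200.1 and 50.8 in wild type. The sni1 minus wild-type estimate was 0.55 ± 0.13 on the log2 scale (SE; adjusted p from limma 0.0212 with the block, 0.906 without it). 251060_at had 75.7, 205 and 61.4 in sni1 replicates 1, 2 and 3, against 38.3, 164 and 41.6 in wild type, and its estimate was 0.59 ± 0.15 on the log2 scale (SE; adjusted p from limma 0.0298 with the block, 0.899 without it). Both were higher in sni1 in 3 of 3 same-numbered pairs, and neither has an annotated gene.

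Each estimate stayed above 0 with the block and both arrays of 1 replicate number left out, while its call was lost without either of 2 replicate numbers. For 259681_at the estimate was 0.49 ± 0.19 without replicate 2 and 0.49 ± 0.15 without replicate 3 (SE; limma adjusted p = 0.178 and 0.0755), and 0.68 ± 0.15 without replicate 1 (0.00709). For 251060_at it was 0.42 ± 0.16 without replicate 1 and 0.74 ± 0.21 without replicate 2 (SE; limma adjusted p = 0.134 and 0.0745), and 0.62 ± 0.17 without replicate 3 (0.0486). The standard errors over all arrays were smaller, at 0.13 and 0.15. Over the 14 alternative settings the limma adjusted p ran from 0.00709 to 0.992 for 259681_at and from 0.0298 to 0.994 for 251060_at.

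None of the 6 named members passed with or without the block. AFR stood at a log2 fold change of -0.29 (SE 0.53 without and 0.18 with the block; limma adjusted p = 0.951 and 0.362). AFR was higher in sni1 at replicate 1 (log2 ratio of signals 0.17) and lower at replicates 2 (-0.35) and 3 (-0.76). AT1G13650 stood at -0.30 (SE 0.80 without and 0.15 with the block; limma adjusted p = 0.97 and 0.241). For AT1G73480 the log2 fold change was -0.17, for AT1G55960 -0.087, for AT5G35970 -0.0025 and for AT1G76240 0.11, where the adjusted p of limma lay between 0.968 and 0.9999 (no block) or between 0.388 and 0.992 (block).

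By pair, sni1 was higher than wild type in 13 of 20 members at replicate 1, in 6 at replicate 2 and in 10 at replicate 3, against 48.3%, 49.3% and 52.1% of the 10130 probe sets. The median log2 ratio of signals over members was 0.18 at replicate 1, -0.11 at replicate 2 and 0.0075 at replicate 3. Only 4 members went the same way in all 3 pairs. They were 259681_at and 251060_at, higher in sni1, and 248377_at and 261335_at, lower in sni1. The same was so of 24.6% of all probe sets as higher and of 24.5% as lower.

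**Figure D4:**
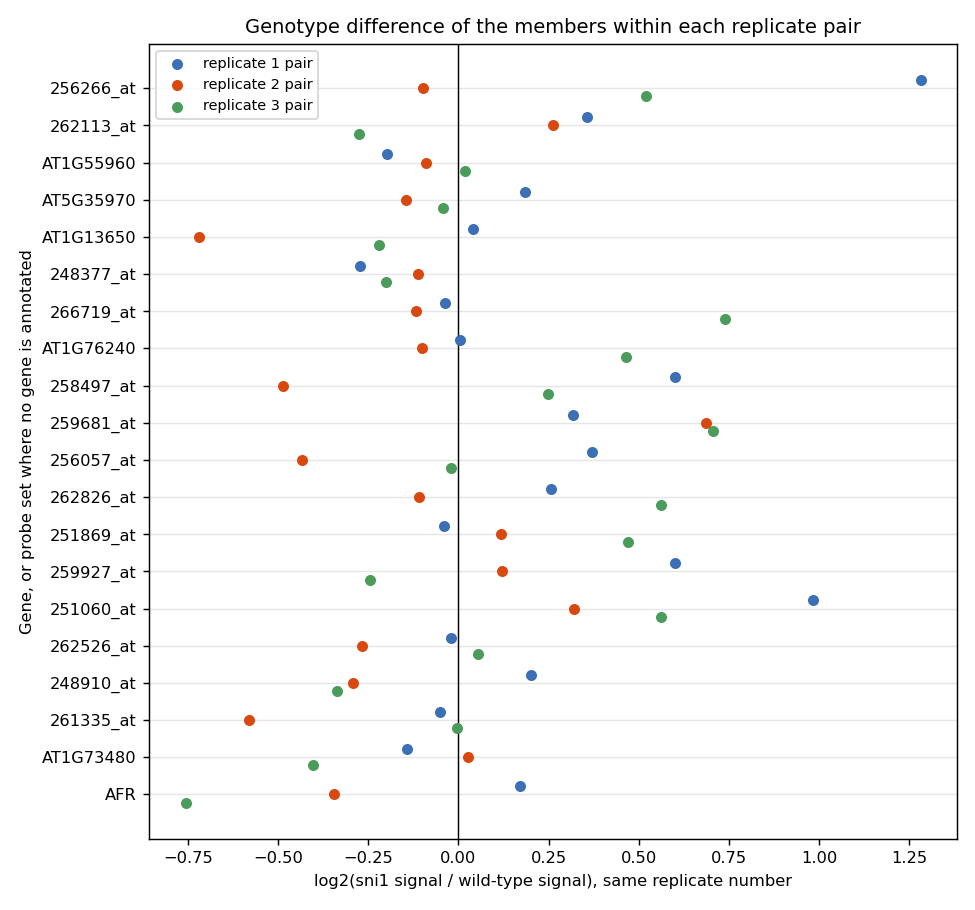
Log2 ratio of sni1 over wild-type signal for each member, with 1 point per replicate pair. Points of most rows fall on both sides of 0, and those of 259681_at (0.32 to 0.71) and 251060_at (0.32 to 0.98) lie wholly to the right.

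None of the 6 named members is in a pathway list, so the lists give the levels of some known pathway genes in the same arrays. Whether any of the 14 members without an annotation entry belongs to a list could not be told. The counts that follow cover only list genes with a named probe set. Of 287 genes in the 26 lists, 41 had a named probe set, 24 of these had a mean of 50 or more, and 0 of the 24 met the member rule. In 0 of the 24 were both replicate 2 arrays above the other 4, against 9.78% of all probe sets, and in 5 both were below, against 9.53%. These 5 were GI, COR47, LTI30, RCA and LHCB4.1. Lists for the morning clock genes, touch and jasmonate, phosphate, nitrate, and light and shade had no named probe set.

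GI (GIGANTEA), a clock and photoperiod gene known to peak late in the day, was the only gene of its list with a named probe set. It had 218 in sni1 and 194 in wild type on the replicate 2 arrays, against 349 and 272 in sni1 and 369 and 306 in wild type on the replicate 1 and 3 arrays, so its replicate 2 mean was 0.636 times that of the others. The 4 genes of the cold and abscisic acid list were also low there, with ratios from 0.306 for COR47, a dehydrin, to 0.389 for COR15B, which encodes a chloroplast protein that accumulates in the cold. COR15A and COR15B were below all others on the replicate 2 array within each genotype, though the genotypes overlapped. Of the cold genes only COR47 and LTI30 lay below all other arrays on both replicate 2 arrays, while members lay above them by the rule.

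The 5 measured genes of the photosynthesis list had a median ratio of replicate 2 mean to the mean of the others of 0.797, from 0.745 for RCA, the activase of Rubisco, to 0.919 for LHCB4.2, an antenna protein. In the other lists ratios ran from 0.682 for PDC2, a pyruvate decarboxylase, upwards, with EXPA8, an expansin that loosens cell walls (1.46), WRKY53, which encodes a transcription factor of leaf ageing (1.45), and AT2G31790, of the aliphatic glucosinolate list (1.41), the highest of the 24. Reference genes of stable expression ran from 0.851 for GAPC2 to 1.04 for AT4G34270. The lowest ratio of a named member was 2.35, for AT1G73480.

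**Figure D5:**
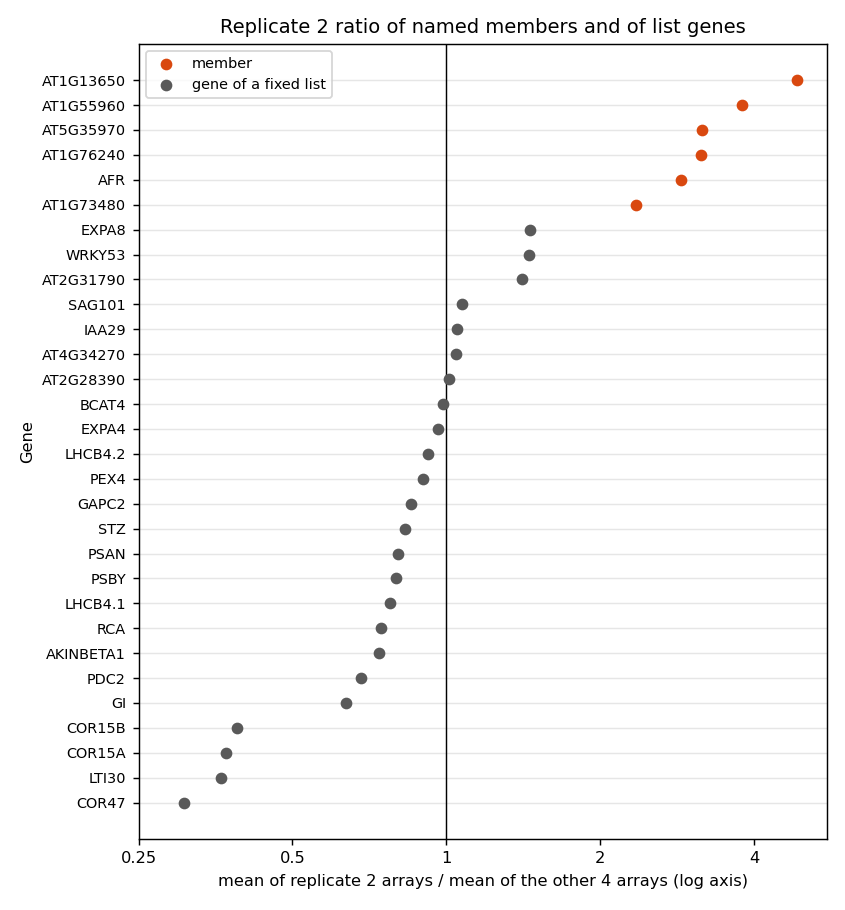
Mean signal of the replicate 2 arrays over the mean of the other 4 (log axis) for the 6 named members (orange) and the 24 list genes with a mean of 50 or more (grey). Members lie between 2.35 and 4.85, as chosen, and list genes between 0.306 for COR47 and 1.46 for EXPA8.

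Between ratios of 1.5 and 2 lay another 62 probe sets, 30 of them with 1 annotated gene. Only some of these genes are named here, picked after their values were seen. ARL (ARGOS-like), a gene of cell expansion, had 265 in sni1 and 183 in wild type on the replicate 2 arrays, against 27.1 and 100.2 in sni1 and 43.7 and 89.2 in wild type on the replicate 1 and 3 arrays. SWEET2, a sugar transporter of the vacuole, had 116 in sni1 and 165 in wild type on the replicate 2 arrays, against 47.8 to 63.8 on the other 4. ARL and SWEET2 thus came near the limit, with ratios of 1.83 and 1.82.

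Some others in this band, picked in the same way, carry known functions in redox metabolism, cell walls and transport. They include GR1, a glutathione reductase (ratio 1.64), VTC4, an enzyme of ascorbate synthesis (1.63), SAPX, the stromal ascorbate peroxidase (1.54), XTH32, a xyloglucan endotransglucosylase/hydrolase (1.60), SIS (Salt Induced Serine rich, 1.58) and AT3G21670 (NPF6.4), of the nitrate and peptide transporter family (1.52). GR1 had 255 in sni1 and 273 in wild type on the replicate 2 arrays, against 132 and 156 in sni1 and 82.1 and 121 in wild type on the replicate 1 and 3 arrays. For VTC4 the signals were 284 in sni1 and 356 in wild type on the replicate 2 arrays, against 149 to 174 on the other 4. The band was not tested for any shared function.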

How the data were processed

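The authors deposited 1 table of linear signal intensity, with a value for each probe set on each array. Per the submitters' processing notes the tool was MAS5, which weighs perfect-match against mismatch probes (version and settings not given in the sources used here). Trimmed means (2% off each end) were equal on all arrays, so values had been scaled before deposit. Precision is limited by the number of arrays.

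The member rule was applied to the deposited signals. Genes were named from the platform annotation, updated through TAIR10.1 gene identifiers. The members and the gene lists were chosen with earlier results of these data known. A locus with several probe sets was read from the one with the highest mean. Named here are all members with 1 gene, the 3 members with the smallest genotype p in each direction, the neighbours of the limit and list genes. The members 262113_at, 248377_at, 248910_at, 266719_at and 258497_at were named after their values were seen. Grouping members by words of their annotation was planned and not possible. Of the 20 members, 14 had no entry, and 5 of the 6 named members carry only a locus identifier in the platform annotation.

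Genotypes were compared with limma 3.58.1 in R 4.3.3 (lmFit and eBayes with an intensity trend) on log2(value + 2.8668), where the added constant is the 10th percentile of the table, two-sided, with Benjamini-Hochberg adjustment over 13648 probe sets. Means under 24.5 were left out. The procedure was tested on simulated data. Figures used matplotlib 3.10.9 in Python 3.11.15.

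Deviations from the genotype mean correlated between same-numbered arrays (0.66, 0.58 and 0.71 across probe sets), and from -0.53 to -0.054 between others. Deviations cancel out within a genotype, so the negative values follow in part from the positive ones. By the same-numbered values the numbers pair the arrays across genotypes. This rests on the data, not on the labels, and includes the pattern described here.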

Additional observations from a re-analysis of the deposited data

How the results depend on the processing

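The count of 20 members was 82 at a ratio limit of 1.5, 3 at a limit of 3, 12 with a mean of 100 or more and 25 with a mean of 25 or more. It was 18 after quantile normalization (17 of them members) and 15 after median centring. With 1 array left out, where a ratio can only stay or rise, it was 25 to 41. The count of members higher in sni1 was 0 without and 2 with the replicate block, 2 with the block and quantile normalization, and with the block 1 without replicate 1, 0 without replicate 2 and 1 without replicate 3, which were added after seeing the data. The other alternatives run gave 0, and the count of members lower in sni1 was 0 in each alternative run. The median log2 fold change of members (0.043) ran from -0.50 to 0.62 with 1 array left out and no block, since each such fit leaves one genotype with a different share of replicate 2. With 1 array left out, log2 fold changes ran from -0.77 to 0.21 for AFR, -0.95 to 0.56 for AT1G13650, -0.73 to 0.55 for AT1G55960, -0.63 to 0.19 for AT1G73480, -0.41 to 0.72 for AT1G76240, -0.52 to 0.58 for AT5G35970, -0.30 to 1.59 for 256266_at, -0.11 to 1.16 for 259681_at, -0.58 to 0.36 for 261335_at and 0.077 to 1.25 for 251060_at. With the block, AT5G35970 stood at 0.069 without replicate 2 and 0.018 without replicate 3, and AT1G76240 at -0.048 without replicate 3, the signs opposite to those over all arrays.

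Signals near the member limit of 50 lie close to the array medians. No detection calls were used, so presence was not judged. Beyond 259681_at and 251060_at, the block changed no call of a member.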

Other observations

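The probe sets lowest on the replicate 2 arrays by the opposite rule numbered 17, and 5 of them had 1 annotated gene. COR27 (cold regulated gene 27) had 126 in sni1 and 110 in wild type on the replicate 2 arrays, against 466 and 475 in sni1 and 437 and 536 in wild type on the replicate 1 and 3 arrays. AT4G33980 had 42.1 in sni1 and 28.1 in wild type on the replicate 2 arrays, against 161 to 183 on the other 4, the widest gap of the 17. AT1G07050, of the CCT-motif family, had 99.6 in sni1 and 83.5 in wild type on the replicate 2 arrays, against 373 to 463 on the others. AT4G33700 and AT2G21130 had ratios of lowest other to higher replicate 2 signal of 2.13 and 2.10. These genes were named after their values were seen.

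Below the mean limit of 50, 81 probe sets met the ratio limit of 2, and 5 of them had a mean of 25 or more. AT2G15020 had 77.7 in sni1 and 112 in wild type on the replicate 2 arrays, against 10.4 and 5.25 in sni1 and 0.886 and 0.848 in wild type on the replicate 1 and 3 arrays, where its level cannot be told from background. AT1G64500, of the glutaredoxin family, had 78.2 in sni1 and 73.3 in wild type on the replicate 2 arrays, against 16.7 and 26.2 in sni1 and 13.8 and 8.89 in wild type on the replicate 1 and 3 arrays.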
